A study of Oryza sativa with 12 samples.

Results

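Panicles of rice line 252, which the submitters call heat tolerant, and of line 082, which they call heat sensitive, were compared after both had spent 5 days in heat, a cycle of 37 °C days and 30 °C nights that is called high temperature here. The comparison takes in 6 of the 12 arrays of the series, 3 for each line, all made from total RNA of panicles and labelled as biological replicates. The other 6 arrays hold the same lines at optimal temperature, a cycle of 30 °C days and 25 °C nights, again with 3 arrays for each line, and serve here to ask whether a line difference at high temperature was also found without heat. The pedigree of the lines and the developmental stage of the panicles are not given in the sources used here, so the lines are known only by their number and their heat rating, and a line difference stands for all that separates 2 genotypes. The labels do not say whether replicates came from separate plants, so the p-values measure the spread between these samples.

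Heat damages rice most while the panicle is flowering, when pollen development, anther opening and pollination are easily disturbed. Cells answer heat through heat stress transcription factors, which switch on chaperones: the small heat shock proteins hold unfolding proteins, and HSP90, HSP70 and the ClpB disaggregase refold or rescue them. Jasmonate, a lipid hormone, is needed for anther opening and for wound responses, and its JAZ repressors are themselves transcribed when the hormone acts. Lines that differ in heat tolerance can also differ at any gene that has nothing to do with heat, and a probe designed on 1 genome can read lower where the other genome carries a variant, which the signals alone do not show.

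Values are signals that the authors produced with Affymetrix MAS5 on a rice array. Differences are given as log2 of line 252 over line 082, each signal raised by 16 before the logarithm, so a difference of 1 is a doubling of those raised signals. A probe set was called when limma's adjusted p was under 0.05 and the difference at least 1 in size, on 33610 probe sets for 16542 genes. In whole panicles, fewer cells of a type and less RNA per cell cannot be told apart.

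The correlation of log2 signals was 0.953 to 0.974 within line 252, 0.969 to 0.977 within line 082 and 0.932 to 0.961 between the lines. Replicate 3 of line 252 stood apart: its correlation with the arrays of line 082 was 0.932 to 0.947, against 0.955 to 0.961 for the other pairs between lines. The 3′/5′ signal ratio of the labelling control Dap ran from 15.2 to 18.7 over the arrays of line 252 and from 16.3 to 19.6 over those of line 082, with an exact two-sided permutation p of 0.70, and 3 arrays against 3 cannot go below 0.10. The ratios of Thr and Phe also overlapped between lines, whereas Lys did not, at 2.05 ± 0.15 (SD, n = 3) and 1.76 ± 0.11 (exact permutation p = 0.10). The 25S ribosomal RNA probe set read 4311 ± 268 in line 252 and 6834 ± 649 in line 082, and the 3′ GAPDH probe set 22397 ± 834 and 16168 ± 339 (exact permutation p = 0.10 for both). Their part in the results below was not tested.

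The tissue marker sums of the lines overlapped in each list. Summed signals of 12 floral organ genes, such as the MADS-box genes that set organ identity, ran from 79060 to 97113 over the arrays of line 252 and from 77205 to 84599 over those of line 082. The 9 grain genes found of 10 listed summed to 8265 to 9561 and 7859 to 10063, the 4 green tissue genes of 7 to 103963 to 117338 and 88043 to 116811. The 3 tapetum genes of 5 summed to only 33.9 to 71.3 and 29.8 to 37.9, and the single late pollen gene of 4 listed, EXPB9, to 44.1 to 95.4 and 44.1 to 63.8. The 6 meiotic genes spread widely in line 252, from 631 to 1949 with the top value on replicate 3, and lay at 718 to 739 in line 082. None of the markers tested was called between the lines. The tapetum gene TDR did not pass the filter and was not tested.

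At high temperature 591 of the 33610 probe sets were called between the lines, or 1.76% of those tested, 209 higher in line 252 (0.622%) and 382 lower (1.14%). By gene, each read by its brightest probe set, 241 of 16542 were called (1.46%), 100 higher (0.605%) and 141 lower (0.852%). Differences were larger on the lower side: the median size was 2.34 among the 382 lower and 1.64 among the 209 higher, and 65 against 15 were over 4. The median over all tested probe sets was 0.03, with a median standard error of 0.28, and the median size of a difference was 0.22. Without replicate 3 of line 252, 148 probe sets were higher and 310 lower, and 422 of those 458 were among the 591.

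**Figure D1:**
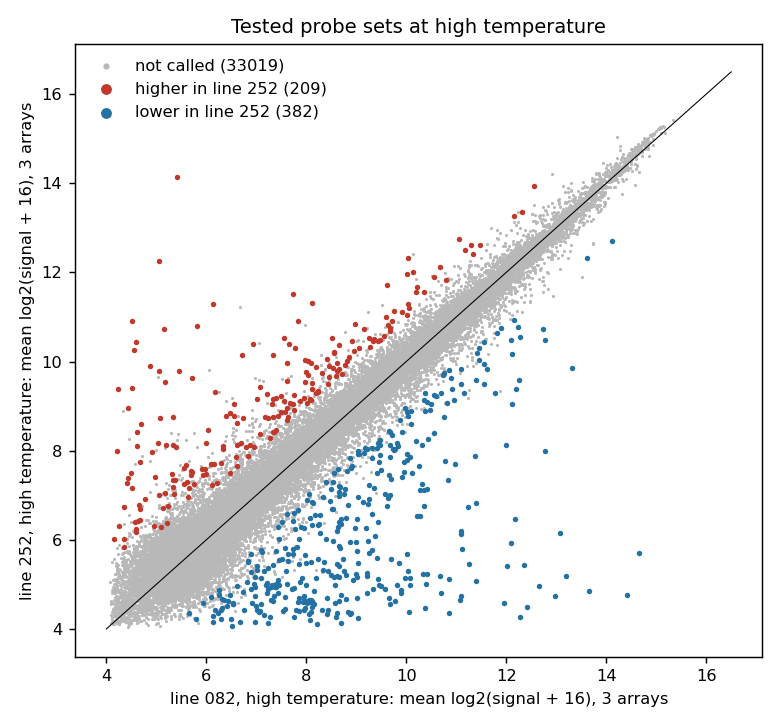
Mean log2(signal + 16) of 3 arrays of line 252 (vertical axis) against 3 arrays of line 082 (horizontal axis) at high temperature, 1 point for each of the 33610 tested probe sets, with the 209 called higher in line 252 in red and the 382 called lower in blue. Most points lie on the diagonal, and the blue points reach farther from it than the red ones.

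Transcripts bright in one line and near the bottom of the scale in the other led both directions. Of the 209 higher probe sets, 48 (23.0%) read under the array median on all 3 arrays of line 082. Of the 382 lower ones, 156 (40.8%) read under the median on all 3 arrays of line 252. On all 3 optimal arrays of the same line, 132 of those 156 again read under the median, whereas of the 48 low in line 082 only 12 did and 19 read above it. Those 132 passed the filter through line 082 alone, where they were high, and those 12 through line 252 alone. The matching shares over all tested probe sets were not taken, so these counts are description only. The probe sets with the largest differences, 8.74 and −9.66, have no gene in the annotation used here, as do 91 of the 209 and 204 of the 382.

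Among genes higher in line 252, an adjacent pair without a name led. LOC4348460 read 1576, 1218 and 1350 in line 252 and 9.02, 0.907 and 16.8 in line 082. Its difference of 5.85 ± 0.27 (SE) had an adjusted p of 6.7e-08 by limma. The 3 arrays of line 082 lay at the floor of the scale, so the size depends on the amount added before the logarithm, 7.62 with 1 added and 4.31 with 64. Its neighbour LOC4348459 read 940.1, 1201 and 1565 in line 252 and 8.54, 8.46 and 5.21 in line 082, a difference of 5.71 ± 0.29. LOC4324455 read 1844, 1656 and 1539 against 39.4, 7.75 and 18.2, a difference of 5.57 ± 0.26. All of these transcripts were plainly present in line 082 at optimal temperature, where LOC4348460 read 642 to 1258, LOC4348459 166 to 421 and LOC4324455 2679 to 4136. The 5.80 ± 0.37 by which the line difference of LOC4324455 at high temperature exceeded that at optimal temperature had an adjusted p of 7.1e-07 by limma.

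Genes lower in line 252 included some that line 252 hardly showed at either temperature. LOC4340120 read 37.0, 5.04 and 5.7 in line 252 and 11272, 16069 and 11803 in line 082. Its difference of −8.80 ± 0.47 had an adjusted p of 2.6e-07 by limma, and was −10.1 with 1 added and −7.36 with 64. In line 252 it also stayed at 6.61 to 24.8 at optimal temperature, where line 082 read 551 to 2332. LOC4340120 read under the array median on every array of line 252, and so passed the filter through line 082 alone. LOC9266843 read 66.3, 43.0 and 31.0 against 6831, 1931 and 6213, a difference of −6.16 ± 0.39, and −6.88 at optimal temperature. LOC4352036 read 14.1, 3.38 and 22.4 against 1446, 2216 and 1354, a difference of −5.87 ± 0.32. That gene was equally low in both lines at optimal temperature, 24.4 to 43.0 in line 252 and 25.9 to 38.5 in line 082, so its signal was high in line 082 at high temperature and in none of the other 3 groups. It read above the array median only on the 3 arrays of line 082 at high temperature, and so passed the filter through that group alone.

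**Figure D2:**
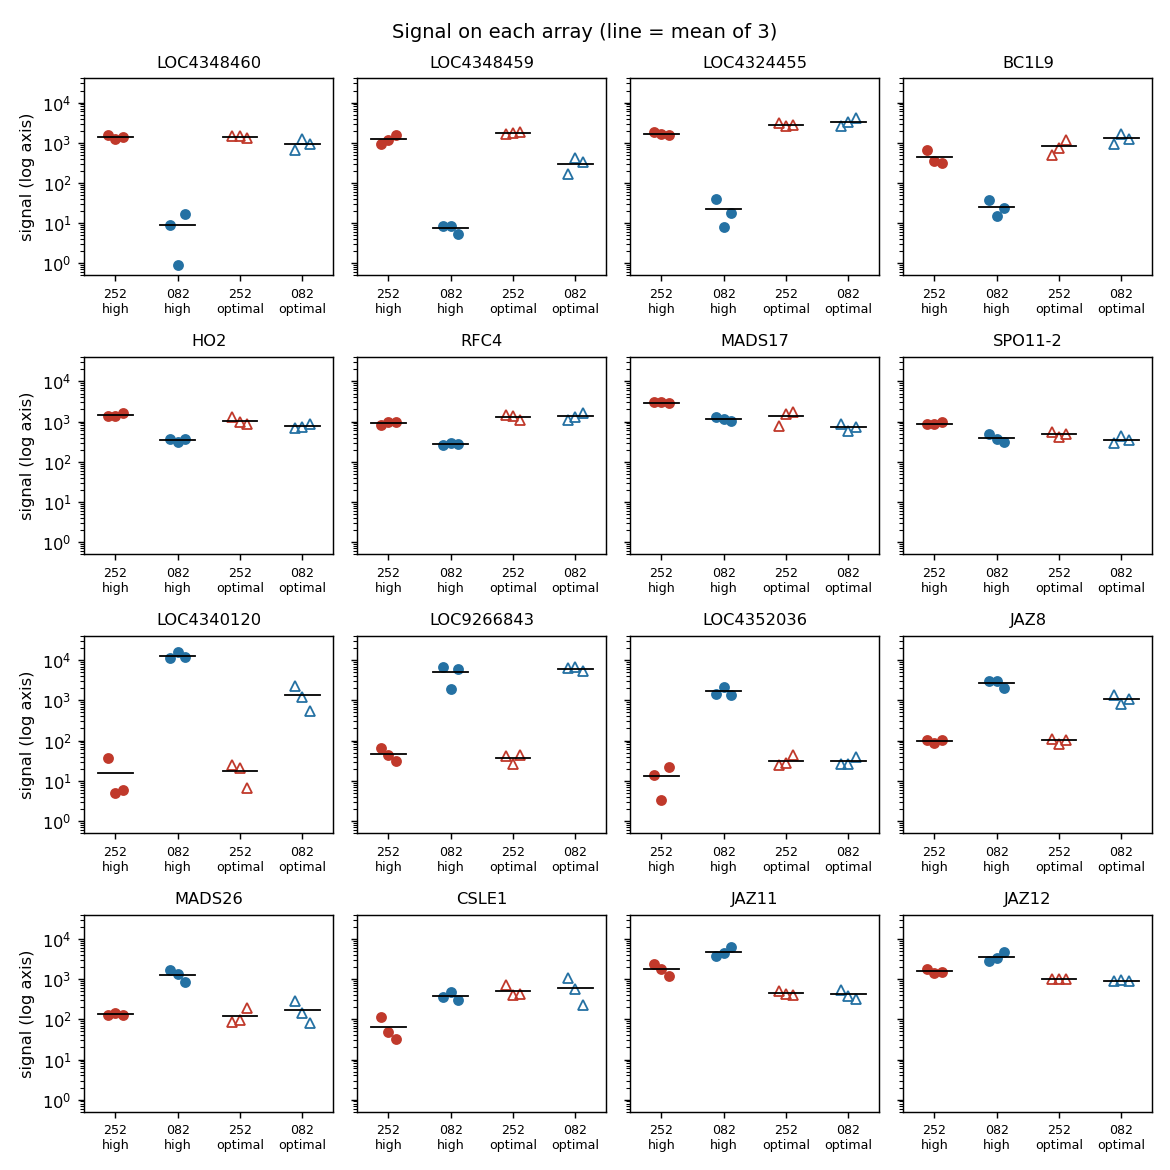
Signal of 16 genes on each of the 12 arrays, on a log axis, with line 252 in red, line 082 in blue, high temperature as filled circles, optimal temperature as open triangles and a line at each group mean. LOC4348460 and LOC4324455 are low in line 082 at high temperature alone, LOC4352036 is high in line 082 at high temperature alone, and LOC9266843 and JAZ8 are low in line 252 at both temperatures.

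No heat protection gene on the lists tested was called between the lines. Over all genes only 1.46% were called, so having no call does not set lists this short apart. Of 18 small heat shock proteins tested none passed, and the median difference was 0.07 beside 0.03 over all probe sets. All 4 members with an unadjusted p under 0.05 (12.7% of all genes had one) were higher in line 252. HSP16.9B read 139, 388 and 510.3 in line 252 and 159, 129 and 125 in line 082, a difference of 1.06 with a 95% interval of 0.21 to 1.92 and an adjusted p of 0.26 by limma. Its arrays overlapped, and without replicate 1 of line 252 the difference was 1.59 and passed the test, while without replicate 3 it was 0.71. HSP17.7 read 1089, 1006 and 1206 against 563, 509 and 797, which did not overlap, a difference of 0.83 (0.37 to 1.28) that missed the test with an adjusted p of 0.071 by limma and passed it at 1.01 without replicate 3 of line 082. The other 2, named here after their values were seen, were HSP18.1 at 0.80 (0.21 to 1.39) and HSP16.9A at 0.77 (0.11 to 1.43). The interval of 9 of the 18 lay within 1 of 0, and those of the other members reached past 1 in at least 1 direction. Small heat shock genes have close copies, and how far their probe sets read 1 member alone was not tested.

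The larger chaperones had narrower intervals. None of 11 HSP90 and ClpB genes was called or had an unadjusted p under 0.05, and 10 of their intervals lay within 1 of 0. CLPB1, the cytosolic disaggregase also known as HSP101, read 451, 707 and 1102 in line 252 and 666, 667 and 695 in line 082, a difference of 0.06 (−0.54 to 0.67). None of 13 ER folding genes and none of 5 DnaJ co-chaperones was called, and 10 and 5 of their intervals lay within 1 of 0. The ER folding list was written to take in HSP70 names too, but no cytosolic HSP70 gene is named here. The abundant co-chaperone DJA6 read 17596, 19126 and 17319 against 17757, 18096 and 15158, a difference of 0.09 (−0.39 to 0.57).

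Of 20 heat stress transcription factors none was called, with a median of 0.06 and 15 intervals within 1 of 0. HSFA2D, of the HSFA2 class that keeps heat responses going, read 5387, 5250 and 4867 in line 252 and 4709, 4286 and 4028 in line 082, a difference of 0.25 (−0.09 to 0.60), and HSFA2E differed by 0.10 (−0.21 to 0.42). HSFA2C read 566, 239 and 148 against 574, 391 and 839, a difference of −1.03 (−1.85 to −0.20) with an adjusted p of 0.26 by limma, which passed the test at −1.53 without replicate 1 of line 252 and was −0.62 without replicate 3. HSFA2A read 14.3 to 72.0 and HSFA2B 32.7 to 46.6 over the 6 arrays, with differences of 0.18 (−0.81 to 1.17) and 0.05 (−0.62 to 0.73). The table entries of HSFA2C and HSFA2D also carry names of an unrelated enzyme family, so these identities are uncertain.

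Of the genes reported elsewhere to bear on rice heat tolerance, 4 were tested and none was called. TOGR1, an RNA helicase needed for ribosomal RNA processing in heat, differed by 0.12 (−0.25 to 0.49), and HTAS, a ubiquitin ligase, by −0.09 (−0.41 to 0.23). RBOHB, an NADPH oxidase, differed by −0.13 (−1.17 to 0.92) and MADS7 by 0.05 (−0.93 to 1.02). The intervals of RBOHB and MADS7 are wide: MADS7 read 1904, 3241 and 8568 in line 252, the last on replicate 3, and 5014, 2713 and 3536 in line 082.

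**Figure D3:**
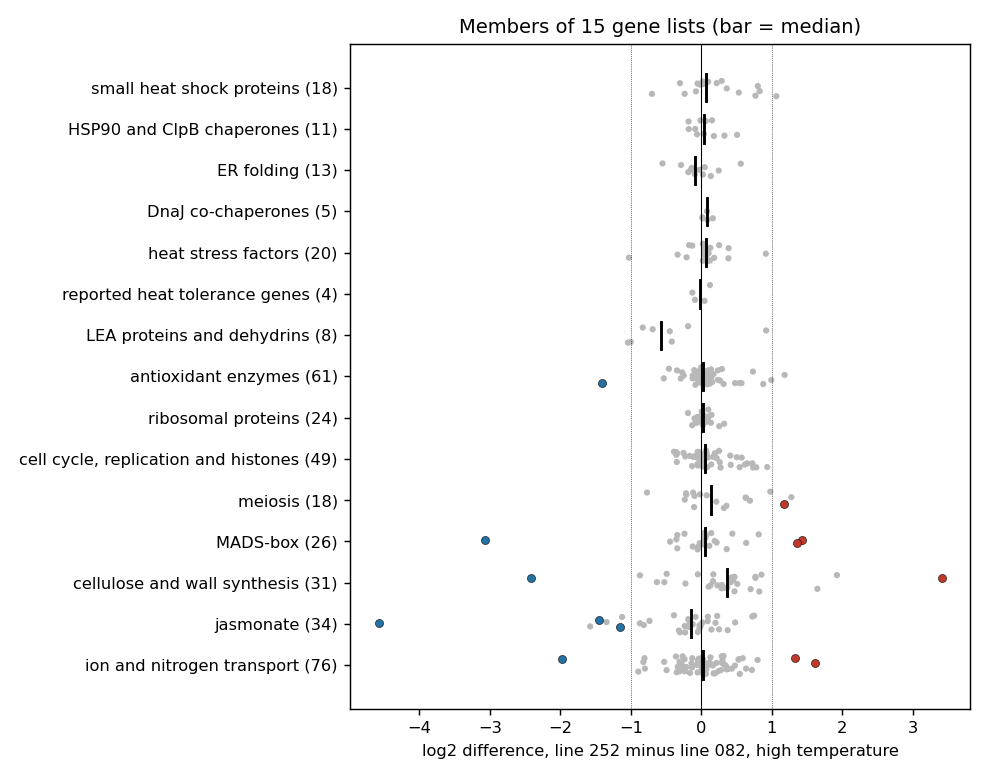
Log2 difference of line 252 minus line 082 at high temperature for each tested member of 15 gene lists (number of members in brackets), with called members in red (higher) or blue (lower), other members in grey and the list median as a bar; dotted lines mark −1 and 1. No member of the chaperone, heat stress factor and ribosomal lists is called, and called members are seen in the jasmonate, wall, MADS-box, meiosis, antioxidant and transport lists.

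Over all 34 lists, 15 of 934 distinct genes tested were called, 1.61%, close to the 1.46% over all genes. The lists' members were chosen with earlier results of these data known. The called members fell mostly into the jasmonate, MADS-box, wall and transport lists.

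Of 34 jasmonate genes, 3 were called, all lower in line 252 and all among the 13 JAZ repressors tested, of which 11 had a difference below 0, and of 11 with an unadjusted p under 0.05 (12.7% of all genes had one) 9 were lower. The list median was −0.14. JAZ8 read 106, 84.9 and 101 in line 252 and 3042, 3113 and 2030 in line 082, a difference of −4.58 ± 0.23 with an adjusted p of 1.2e-07 by limma. Line 252 read 83.1 to 112 at optimal temperature too, against 835 to 1385 in line 082, so JAZ8 was low in line 252 under both conditions. JAZ11 read 2397, 1846 and 1173 against 3846, 4471 and 6329, a difference of −1.45 ± 0.27 with an adjusted p of 0.011 by limma. JAZ12 read 1789, 1469 and 1524 against 2895, 3311 and 4723, a difference of −1.16 ± 0.17 with an adjusted p of 0.0016 by limma. At optimal temperature the differences of JAZ11 and JAZ12 were 0.13 and 0.16 and were not called. Both calls depended on replicate 3 of line 082, without which JAZ11 stood at −1.25 with an adjusted p of 0.064 by limma and JAZ12 at −0.96. AOS3, an allene oxide synthase of the hormone's synthesis pathway, read 133, 111 and 91.1 against 452, 201 and 311, a difference of −1.34 (−2.23 to −0.46) that was not called, with an adjusted p of 0.15 by limma. A second allene oxide synthase gene, AOS, named after its value was seen, pointed the other way at 0.75 and was not called.

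Of 26 MADS-box genes, 2 were called higher and 1 lower, with a list median of 0.05. MADS50, a flowering activator related to SOC1, read 257, 165 and 178 in line 252 and 69.5, 61.0 and 57.9 in line 082, a difference of 1.43 ± 0.24 with an adjusted p of 0.0061 by limma. At optimal temperature its difference was 1.55. MADS17, an AGL6-type floral gene, read 3013, 3008 and 2924 against 1323, 1144 and 1023, a difference of 1.35 ± 0.25 with an adjusted p of 0.0097 by limma, or 0.055 without replicate 3 of line 082. MADS26, tied in rice to stress and defence responses, read 128, 148 and 132 in line 252 and 1694, 1365 and 854 in line 082, a difference of −3.07 ± 0.40 with an adjusted p of 0.00069 by limma. MADS26 was called at high temperature and not at optimal temperature, where its difference was −0.32, and the change of −2.74 ± 0.56 between temperatures had an adjusted p of 0.0031 by limma.

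Of 18 meiosis genes, 1 was called. SPO11-2, of the family that opens meiotic recombination by cutting DNA, read 877, 849 and 948 in line 252 and 501, 360.5 and 314 in line 082, a difference of 1.18 ± 0.20 with an adjusted p of 0.0066 by limma. Its 3 probe sets read 1.18, 1.06 and 1.02, and 2 of them were called. The list median was 0.14, and 5 members had an unadjusted p under 0.05 (12.7% of all genes had one). None of 49 genes of the cell cycle, replication and histones was called, while RFC4, a subunit of the clamp loader that works at replication forks and not on that list, read 839, 972 and 952 against 261, 288 and 278. Its difference of 1.68 ± 0.17 had an adjusted p of 7.6e-05 by limma, and at optimal temperature the difference was −0.04. RSS1, a cell cycle regulator that keeps rice meristems dividing under salt stress, read 90.9, 186 and 138 against 48.3, 50.3 and 63.3, a difference of 1.10 ± 0.25 with an adjusted p of 0.039 by limma. That call was fragile: it was lost without replicate 2 or 3 of line 252, at 0.88 and 1.08, and without any single array of line 082, at 1.04 to 1.19.

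Of 31 genes of cellulose and wall synthesis, BC1L9 was called higher and CSLE1 lower. The list median was 0.37, and 6 members had an unadjusted p under 0.05 (12.7% of all genes had one). BC1L9, a COBRA-like protein of the family tied to cellulose laying, read 670.4, 355 and 304 in line 252 and 38.2, 14.8 and 24.1 in line 082, a difference of 3.42 ± 0.36 with an adjusted p of 0.00013 by limma. At optimal temperature line 082 read 930.5 to 1662 and line 252 507 to 1185, and its other probe set differed by 1.36 and was not called. CSLE1, a cellulose synthase-like gene, read 114, 48.0 and 32.6 against 366, 477 and 309.8, a difference of −2.42 ± 0.48 with an adjusted p of 0.018 by limma. Without replicate 2 or 3 of line 252, or replicate 1 or 2 of line 082, CSLE1 stood at −2.44 to −2.11 and missed the test. Of 23 genes of pollen and wall loosening none was called, with a median of 0.30. EXPB7, a beta-expansin, read 161, 61.9 and 1395 in line 252, the last on replicate 3, and 54.8, 49.1 and 23.3 in line 082, a difference of 2.25 (0.61 to 3.89) with an adjusted p of 0.20 by limma. It passed the test without replicate 2 of line 252, at 3.14, and fell to 1.05 without replicate 3.

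Metal and nitrogen transporters held 3 called members of 76 tested, with a list median of 0.03. HMA5, a copper-pumping ATPase, read 130.4, 181 and 299 in line 252 and 39.6, 44.8 and 77.6 in line 082, a difference of 1.61 ± 0.35 with an adjusted p of 0.033 by limma. NRAMP5, the manganese and cadmium uptake carrier of rice, read 3512, 3297 and 4706 against 2004, 1142 and 1462, a difference of 1.33 ± 0.25 with an adjusted p of 0.013 by limma, and was higher in line 252 at optimal temperature as well, at 1.77. The ammonium transporter AMT3-2 read 437, 238 and 219 against 992, 1113 and 1418, a difference of −1.97 ± 0.40 with an adjusted p of 0.021 by limma. At optimal temperature AMT3-2 was higher in line 252, at 2.05, so its line difference turned round between temperatures. Each of the 3 lost its call when certain single arrays were left out. HMA5 stood at 1.32 without replicate 3 of line 252 and at 1.47 to 1.66 without replicate 2 of line 252 or replicate 1 or 2 of line 082. NRAMP5 stood at 1.18 without replicate 3 of line 252 and at 1.14 and 1.31 without replicates 2 and 3 of line 082, and AMT3-2 at −2.00 to −1.80 without replicate 2 or 3 of either line.

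Of 22 WRKY and pathogenesis-related genes 1 was called, the chitinase CHT-3, which read 259, 155 and 125 in line 252 and 359, 385 and 583 in line 082, a difference of −1.25 ± 0.26 with an adjusted p of 0.026 by limma. CHT-3 was higher in line 252 at optimal temperature, at 1.18, and missed the test at −1.33 to −1.04 without replicate 2 or 3 of either line. Of 61 antioxidant genes 1 was called, the thioredoxin OsTrx18, which read 1013, 1186 and 937 against 2215, 3240 and 2981, a difference of −1.40 ± 0.21 with an adjusted p of 0.0021 by limma. Its other 2 probe sets differed by −0.31 and −0.0047 and were not called, so that difference belongs to 1 probe set. HO2, of the heme oxygenase family, read 1394, 1386 and 1648 against 363, 315 and 372, a difference of 2.03 ± 0.17 with an adjusted p of 1.7e-05 by limma, beside 0.42 at optimal temperature. G-TMT, the methyltransferase that makes alpha-tocopherol, read 5167, 5448 and 5634 against 2977, 2786 and 2052, a difference of 1.07 ± 0.19 with an adjusted p of 0.0079 by limma. G-TMT differed by 1.76 at optimal temperature, and fell to 0.91, under the size required, without replicate 3 of line 082.

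None of 8 LEA proteins and dehydrins, which protect drying cells, was called, with a median of −0.57. Of 4 with an unadjusted p under 0.05 (12.7% of all genes had one), 3 were lower. RAB16B, a dehydrin made under drought and abscisic acid, read 1011, 352 and 251 in line 252 and 851, 772 and 1268 in line 082, a difference of −1.04 (−1.97 to −0.11) with an adjusted p of 0.33 by limma, and passed the test at −1.61 without replicate 1 of line 252 and was −0.64 without replicate 3. Its arrays overlapped, as did those of RAB16C, at −1.001 (−1.83 to −0.17). Of 12 seed storage and grain genes 1 was called, the glutelin GLUB-5, which read 156, 66.0 and 65.5 against 10.6, 21.2 and 27.7, a difference of 1.58 ± 0.29 with an adjusted p of 0.010 by limma. The call of GLUB-5 was lost with 64 added before the logarithm, at 0.89. It was also lost with the high temperature arrays fitted alone, at an adjusted p of 0.12 by limma. These are low signals beside the 26362 to 30653 of GLUB-5 in line 082 at optimal temperature, and other glutelin genes are close copies. None of 12 starch genes and none of 23 sugar transport genes was called. SWEET11, a sucrose exporter, read 2889, 2278 and 24108 in line 252, the last on replicate 3, and 4174, 441 and 712 in line 082, a difference of 2.28 (0.48 to 4.09) that dropped to 1.21 without that array.

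Further single genes of known role were called outside these groups. AARE2, an acylamino-acid-releasing enzyme, read 774, 817 and 943 in line 252 and 379, 286 and 259.7 in line 082, a difference of 1.42 ± 0.21, while its other probe set differed by 0.13. KPHMT1, of pantothenate synthesis, differed by 1.05 ± 0.23 and missed the test without replicate 2 or 3 of line 252 or any single array of line 082, at 0.89 to 1.10. AGO3, an Argonaute protein of small RNA pathways, read 102, 99.4 and 91.1 against 203, 265 and 346, a difference of −1.31 ± 0.28 with an adjusted p of 0.030 by limma. AGO3 missed the test without any single array of line 252 or replicate 2 or 3 of line 082, at −1.34 to −1.13. HGO, the homogentisate dioxygenase of tyrosine breakdown, read 687, 891 and 1157 against 1762, 3309 and 1766, a difference of −1.27 ± 0.25, and missed the test without replicate 1 or 2 of line 252 or replicate 2 of line 082, at −1.27 to −0.97. XBOS36 read 75.1, 69.6 and 78.2 against 332, 220.2 and 223, a difference of −1.58 ± 0.24 with an adjusted p of 0.0024 by limma. OrysaZxb read 66.8, 93.2 and 62.6 against 309.6, 482 and 519, a difference of −2.31 ± 0.38 with an adjusted p of 0.0045 by limma. The helicase gene RTEL1 read 146, 148 and 211 against 471, 258 and 373, a difference of −1.04 ± 0.24 with an adjusted p of 0.045 by limma, at the edge of both limits, and missed the test without replicate 1 or 2 of line 252 or replicate 1 or 3 of line 082, at −1.01 to −0.84. Its other probe set was called too, at −2.03.

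Among the most abundant called transcripts, LOC4351671 read 14954, 13502 and 18894 in line 252 and 6571, 5645 and 5801 in line 082, a difference of 1.38 ± 0.15 with an adjusted p of 0.00014 by limma, against 0.29 at optimal temperature. LOC4336739 read 5029, 5195 and 5111 against 13275, 13581 and 11036, a difference of −1.30 ± 0.12 with an adjusted p of 5.1e-05 by limma. These genes have no name in the table used here. LOC4339380 read 1009, 1101 and 668 against 8604, 12683 and 9685, a difference of −3.47 ± 0.28, and was lower in line 252 at optimal temperature as well, at −2.42. LOC4327840 read 144, 239.7 and 384 against 5279, 8667 and 7345, a difference of −4.78 ± 0.30, and −4.11 at optimal temperature. LOC4330137 turned round, reading 609, 580.4 and 792 against 3240, 5963 and 5268 at high temperature, −2.81 ± 0.25, and 1.27 at optimal temperature. LOC4325145 turned round likewise, from 2.10 at optimal temperature to −1.95 ± 0.31.

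The remaining abundant genes were higher in line 252 by little more than the size required. LOC4336618 differed by 1.10 ± 0.25, LOC4341387 by 1.15 ± 0.18, LOC4344690 by 1.05 ± 0.21, LOC4332568 by 1.31 ± 0.28 and LOC4351605 by 1.33 ± 0.23. The calls were not firm: LOC4336618 missed the test without any single one of the 6 arrays, at 1.01 to 1.16, LOC4332568 without replicate 1 or 3 of line 252 or 2 or 3 of line 082, at 1.03 to 1.27, and LOC4344690 without replicate 2 or 3 of line 252 or 1 or 2 of line 082, at 0.94 to 1.06. LOC4351605 missed it at 1.21 and LOC4341387 at 0.99 without replicate 2 of line 082. With the mean of its probe sets LOC4341387 stood at 0.61 and also missed the test. LOC4341274 read 2691, 693 and 12923 in line 252, the last on replicate 3, and 649, 70.5 and 149 in line 082, a difference of 3.78 ± 0.86 with an adjusted p of 0.040 by limma. It stood at 2.71 and missed the test without replicate 3 of line 252, and also without replicate 1 of line 252 or replicate 2 or 3 of line 082.

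In the other lists no member was called. These were 24 ribosomal protein genes, all with intervals within 1 of 0, 18 photosynthesis genes, 15 clock and photoperiod genes, 23 aquaporins, 75 calcium sensors and kinases, 35 homeobox genes, 33 kinesins, 27 cytochromes P450, 19 diterpenoid phytoalexin genes, 16 flavonoid and phenylpropanoid genes, 6 tapetum genes and 5 resistance genes. Of the hormone lists, none was called of 91 abscisic acid genes, 55 auxin genes and 50 genes of gibberellin, brassinosteroid, cytokinin and ethylene. Members with an unadjusted p under 0.05 numbered 9 of the 91, 6 of the 55 and 4 of the 50, at or under the 12.7% over all genes. CML1, a calmodulin-like calcium sensor, read 3958, 3219 and 1735 in line 252 and 7123, 9990 and 6821 in line 082, with no overlap, but its difference of −1.48 (−2.33 to −0.63) had an adjusted p of 0.088 by limma. HOX12, a homeodomain gene, read 3027, 4933 and 2551 against 6383, 6212 and 8207, also with no overlap, a difference of −1.03 (−1.60 to −0.46) with an adjusted p of 0.075 by limma, and passed the test at −1.30 without replicate 2 of line 252. Over all genes 20.2% had no overlap between the lines.

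The lines were closer to each other at high temperature than at optimal temperature. At optimal temperature 9208 probe sets were called between them (27.4%), against the 591 at high temperature, and the median size of a difference over all tested probe sets was 0.61 against 0.22. The difference between the 2 line differences was itself called for 7828 probe sets (23.3%). The optimal arrays of line 082 carried far more grain marker signal, with 9 genes summing to 145738 to 197619 against 4665 to 19118 in line 252, where at high temperature both lines lay between 7859 and 10063. Most of the high temperature sum was 1 gene, CPDK1, at 7060 to 9151, while the storage protein genes GLUA-1, GLUA-2 and PROLM25 read at most 136 on those 6 arrays and at least 16601 on the optimal arrays of line 082. The 18S ribosomal RNA probe set averaged 1164 ± 189 for line 252 and 22254 ± 3562 for line 082 on the optimal arrays, against 10855 ± 522 and 9128 ± 1930 on the high temperature arrays. The 3′/5′ ratio of actin was 31.0 ± 4.20 for line 252 and 5.54 ± 1.38 for line 082 on the optimal arrays, and that of GAPDH 7.13 ± 2.11 and 1.80 ± 0.34. The Dap ratio was 1.82 to 2.49 over the 6 optimal arrays, against 15.2 to 19.6 over the 6 high temperature arrays, and that of Thr 2.83 to 4.40 against 23.8 to 38.6. The part of grain tissue, labelling and RNA quality in the optimal comparison was not tested, and every statement here on a change between temperatures rests on those arrays.

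Of the 591 probe sets called at high temperature, 255 were called in the same direction at optimal temperature. They make 43.1% of the high temperature calls and 2.77% of the optimal temperature calls. A further 42 were called in the opposite direction, such as AMT3-2, CHT-3, LOC4330137 and LOC4325145, and 294 were not called at optimal temperature. A missing call there does not show that a line difference arose with heat. The test of the change passed for 328 of the 591, among them RFC4, BC1L9, MADS26, JAZ11, JAZ12 and LOC4352036, and did not pass for the other 263, among them MADS50, NRAMP5, LOC9266843 and LOC4327840. Over all probe sets it passed for 23.3%. That test contains the high temperature difference by which the 591 were chosen, which raises the share that pass. The 328 are therefore no separate support for a change with temperature, and the same holds for single genes chosen by that difference. LOC4352036 had passed the filter only through the group where it was high.

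**Figure D4:**
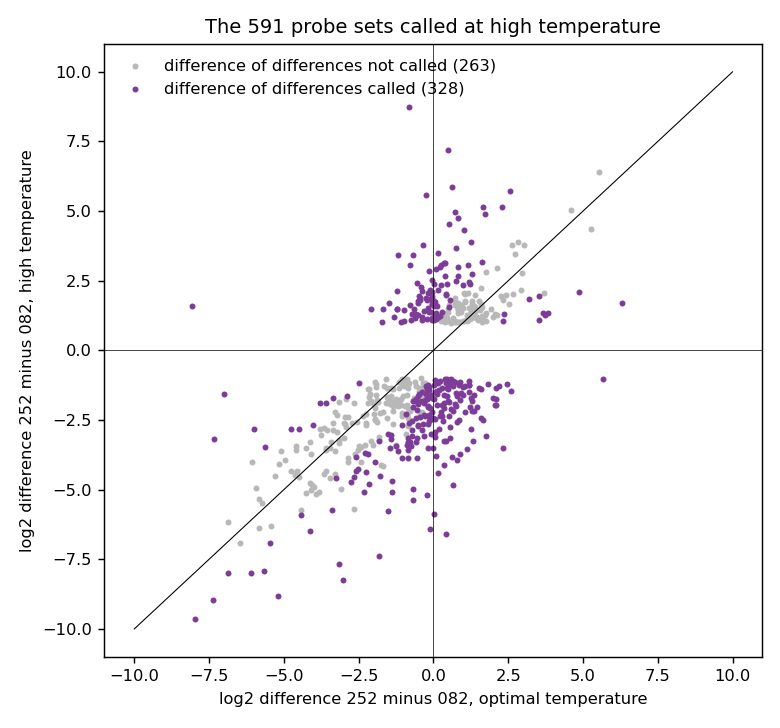
Log2 difference of line 252 minus line 082 at high temperature (vertical axis) against that at optimal temperature (horizontal axis) for the 591 probe sets called at high temperature. Purple marks the 328 for which the test of the change between temperatures passed, grey the other 263, and the line equal differences. The 255 called in the same direction at optimal temperature, not marked by colour, lie in the lower left and upper right corners, some of them far from the line. The 42 called in the opposite direction, also not marked, lie in the other corners.

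Probe sets of 1 gene mostly shared the sign of the call, but seldom were all of them called. Of 2669 genes with several tested probe sets, 80 had at least 1 call. In 15 every probe set was called in the same direction, and in 47 some were called and the others had the same sign. In 18 at least 1 uncalled probe set had the sign opposite to the call, and in 0 were calls opposite. A shared sign can hold values near 0, as for LOC4332351 at −2.19 and −0.02. How often probe sets of 1 gene share a sign over all genes was not taken. Where only 1 of several was called, as for OsTrx18 and AARE2, the value speaks for that probe set.

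Called genes often lay next to each other, which is given as a description with no test. Of the 241 called genes 33 (13.7%) had a called gene as a next neighbour in the order of tested genes, against 2.85% of all genes. With the limit that called genes in a run lie at most 10 places apart and number at least 4, chosen after the values were seen, there were 8 runs with 38 called genes. In the run from LOC4324455, 4 of 6 genes were called, at 5.57, 5.15, 4.89 and, for RTEL1, −1.04. In the run from LOC4348459, 6 of 13 were called, at 5.71, 5.85, 3.07, 3.07, −3.24 and 2.38. The first 3 called genes of the one run and the first 4 of the other were higher in line 252, whereas the run from LOC4340029 had 4 of 9 called and all lower, at −2.17, −1.29, −1.34 and −2.21. Other runs mixed directions, with G-TMT at 1.07 and 4 more called genes among 12, from −4.33 to 2.81, and RFC4 at 1.68 and 3 more among 13, from −2.35 to 2.36. The longest run, from LOC4325860, had 7 of 40 called, 5 lower and then 2 higher, from −2.34 to 1.998, and the run from LOC4348864 had 4 of 18 called and all higher, from 1.01 to 3.19. Probe sets of some run members disagreed. In the longest run LOC4324129 stood at −2.04 and −0.09 and LOC4327625 at −1.63, −1.83, −0.40 and −0.07. LOC4330438, in the run with G-TMT, stood at 1.95 and −0.12. Those of LOC4336716 (−1.12 and −0.68) and LOC4336742 (1.28 and 0.95), in other runs, were closer. MADS17 closed a run of 4 called genes among 18 that opened with LOC4336739, the abundant transcript lower in line 252.

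**Figure D5:**
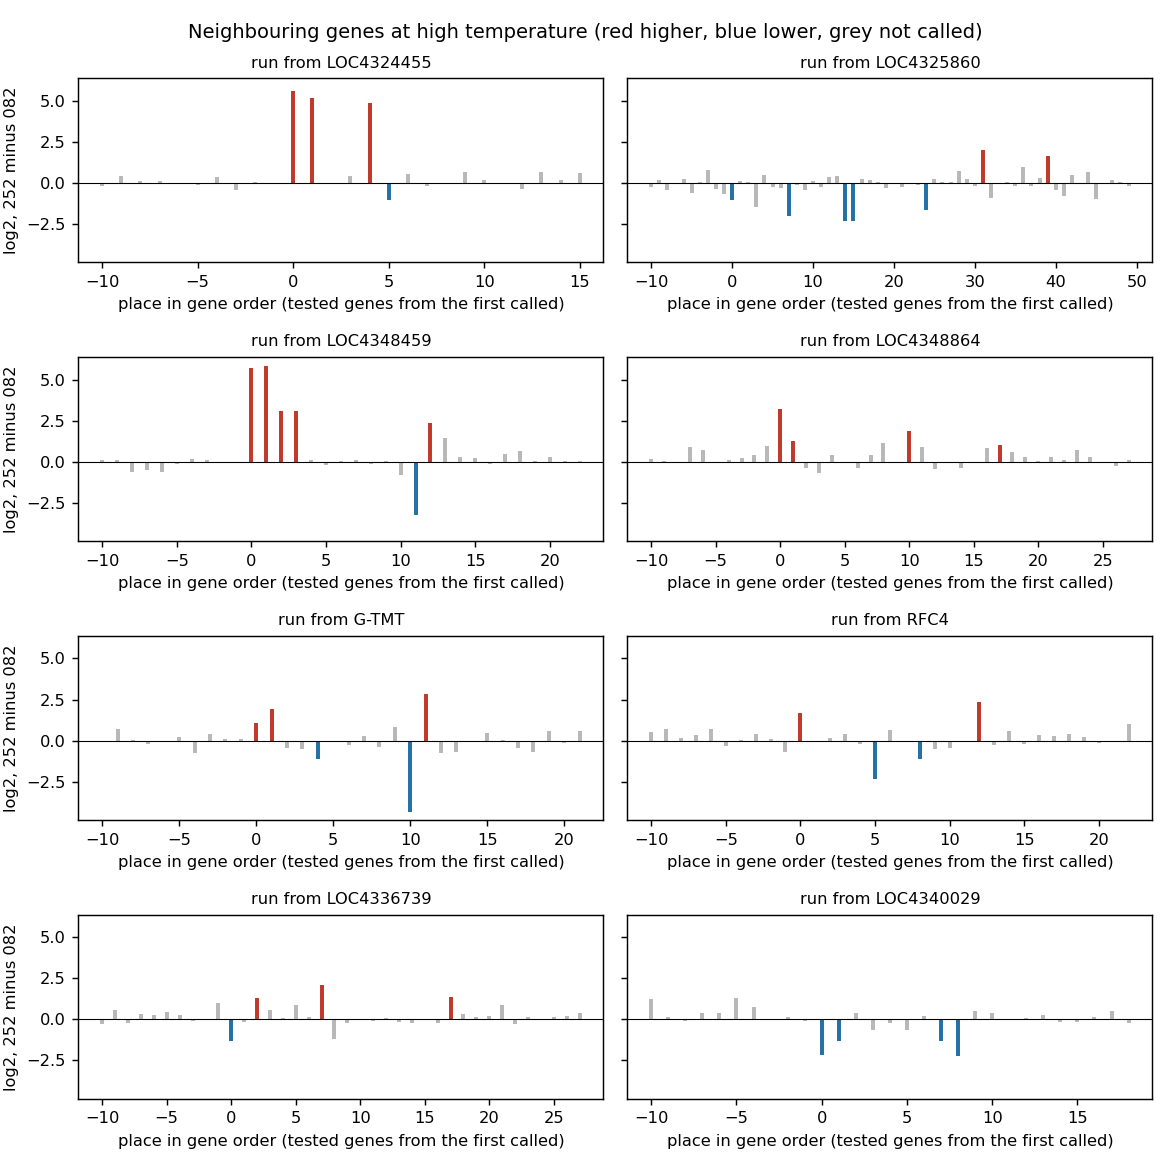
Log2 difference of line 252 minus line 082 at high temperature for successive tested genes around 8 runs of called genes, in gene order, with called genes in red (higher) or blue (lower) and others in grey. In the run from LOC4324455 the called genes stand at 5.57, 5.15, 4.89 and −1.04 among neighbours near 0.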

How the data were processed

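Total RNA of rice panicles was hybridised to 12 1-colour arrays, 3 for each of 2 lines at each of 2 temperatures. The deposited values are intensities on a linear scale, which the authors computed with MAS5, the only tool named in the submitters' processing notes; the trimmed mean of each array's signals (2% cut at each end) was 500.1, so the arrays had been scaled to 1 level. The number of arrays limits the precision.

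Of 57381 probe sets, 187 control probe sets were set aside. A probe set was kept if above its array's median, taken over the other probe sets, on at least 3 of the 12 arrays, which left 33610. Log2(signal + 16) was fitted with limma 3.58.1 in R 4.3.3 as 4 group means, with 8 residual degrees of freedom and an intensity trend, and the Benjamini-Hochberg adjustment took in all kept probe sets. A call needs an adjusted p under 0.05 and a log2 difference of at least 1. The change of the line difference between temperatures was tested in the same fit. A gene is read by the brightest of its kept probe sets, judged by the mean of all 12 arrays.

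Gene names came from the platform annotation and a RefSeq gene table of assembly ASM3414082v1, used for names and gene order only. Of all probe sets, 22436 had 1 gene, 95 several and the others none, and 2457 of 17905 genes had a name. Named genes are those with the largest called differences, up to 15 with and 3 without a name in each direction, the largest of each list (up to 4 called, else 2), the HSFA2 genes, CLPB1, reported heat tolerance genes, and up to 8 abundant called genes in each direction. The members and lists were chosen with earlier results of these data known. In simulated data with 200 changed probe sets, 52% of those changed by 1.5 and 94.5% of those changed by 3 were called. Alternatives varied scaling, the amount added, the filter, the trend, array weights, a replicate block, the arrays fitted and the reading of genes.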

Additional observations from a re-analysis of the deposited data

Results flagged for a closer look

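The line difference of 55 of the 102 named genes changed between temperatures by limma's test of the change, at an adjusted p under 0.05 and a size of at least 1. Many named genes were chosen by the size of their high temperature difference, which is part of that test and raises the share that pass. Over all probe sets the same test passed for 7828 (23.3%). Each value below is the log2 difference of line 252 minus line 082 at high temperature minus that at optimal temperature. The optimal arrays of line 082 carried grain marker sums of 145738 to 197619, against 4665 to 19118 in line 252, and the part of this in the changes was not tested.

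Among genes called higher in line 252 at high temperature, the change was 9.63 for GLUB-5, a glutelin of the grain, 5.80 for LOC4324455, 5.23 for LOC4348460, 4.13 for LOC4341274, 4.10 for BC1L9, 3.16 for LOC4348459 and 2.39 for HMA5. It was smaller for LOC4332568 (1.89), LOC4336618 (1.87), LOC4341387 (1.76), AARE2 (1.75), RFC4 (1.73), HO2 (1.61), LOC4351671 (1.09) and RSS1 (1.08).

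Among genes called lower in line 252 at high temperature, the change was −5.89 for LOC4352036, −4.08 for LOC4330137, −4.05 for LOC4325145, −4.02 for AMT3-2, −3.62 for LOC4340120, −2.74 for MADS26, −2.43 for CHT-3, −2.39 for CSLE1 and −2.18 for OrysaZxb. It was smaller for RTEL1 (−1.61), JAZ11 (−1.59), JAZ8 (−1.33), JAZ12 (−1.32), OsTrx18 (−1.20), XBOS36 (−1.11) and LOC4336739 (−1.03).

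A further 24 named genes were not called between the lines at high temperature, yet their line difference changed. Upward changes were those of the starch genes GBSS-I at 7.05 and SUS3 at 4.97 and of the folding enzyme PDIL1-4 at 4.53. Named heat protection genes among them were HSP16.9B at 4.24, HSFA2A at 2.41, CLPB1 at 2.22, CLPB-M at 1.98 and HSP17.7 at 1.21. Over the whole lists the change passed upward for 11 and downward for 1 of 18 small heat shock proteins, for 5 and 3 of 20 heat stress factors and for 2 and 0 of 11 HSP90 and ClpB genes. Over all genes it passed upward for 9.7% and downward for 15.5%. At optimal temperature 11 of the 18 small heat shock proteins were called lower in line 252 and 1 higher. Their median difference was −2.04 there and 0.07 at high temperature. Other lists changed too, upward for 11 of 12 seed storage and 8 of 12 starch genes and downward for 13 of 22 WRKY and pathogenesis-related genes. The other upward changes among the named genes were ERF31 at 3.17, EAT1 at 2.85, RAB16B at 2.28, GH3.11 at 1.36, RPL3 at 1.20 and SGR at 1.14. Downward changes were those of the clock gene PCL1 at −5.28, the diterpenoid synthase KS4 at −4.26, the sugar carrier MST3 at −4.20, CML1 at −3.46, the chlorophyll synthesis gene PORA at −3.45, OsPP2C16 at −2.34, CYP99A2 at −2.05, IAA31 at −1.95, CYP88A5 at −1.79 and HOX12 at −1.16.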

How the results depend on the processing

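In 21 alternative settings the counts of called probe sets moved by over 1.5 times in few. Higher probe sets numbered 209, but 131 with the filter at the 75th percentile, 372 with array weights, 92 with 1 probe set per gene, 90 with the mean of a gene's probe sets, and 134 (without 082 replicate 2) to 247 with single arrays left out. Lower ones numbered 382, but 204 with that filter, 133 with 1 probe set per gene, 136 with the mean, and 290 to 356 with single arrays left out. Calls in the same direction at optimal temperature numbered 255, but 152, 84 and 88 in those settings, and calls that changed between temperatures 328, but 197, 135 and 135, and 540 with array weights. The gene settings count fewer features. List members called higher numbered 7, but 12 with array weights, and those called lower 8, but 4 (without 082 replicate 3) or 5 (without 252 replicate 3) to 11 with single arrays left out. Without single arrays 398 to 487 of the 591 calls were shared, and 352 held in every such fit. With the high temperature arrays fitted alone, so that the spread came from them only, 153 were higher and 349 lower. The calls of RSS1, LOC4341274, RTEL1, GLUB-5, HMA5, HGO, CHT-3, KPHMT1 and LOC4332568 were lost in that fit. With the replicate block 188 were higher and 351 lower. Deviations of same-numbered arrays correlated at −0.20, 0.10 and −0.10, and those of the other pairs from −0.16 to 0.23. Deviations from means of 3 arrays are tied to each other, so these values cannot show whether same-numbered samples were handled together. The labels do not say. The median difference stayed within −0.02 to 0.03 under each scaling. Of 44 called named genes, 21 were called in all settings run and 23 lost the call in at least 1; of 58 not called, 11 gained one. No called gene changed sign. Uncalled genes near 0 did: HSFA2B at −0.0015 with 75th percentile centring and −0.0100 with array weights, MADS7 at −0.0093, −0.014 with the spikes and −0.015 with array weights, and HSFA2A at −0.0065 with the mean of its probe sets. With single arrays left out HSFA2A ran from −0.089 to 0.68, HSFA2B from −0.045 to 0.11, MADS7 from −0.55 to 0.53, TOGR1 from −0.028 to 0.25, CLPB1 from −0.25 to 0.38, HTAS from −0.16 to 0.014 and RBOHB from −0.30 to 0.018. The cause of these shifts was not tested. Signals near the bottom of the scale limit the sizes, since no detection call was used.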
